A study of Caenorhabditis elegans with 2 samples.

Results

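The regions described here are the stronger REC-8::GFP peaks at single promoters of protein-coding genes in Caenorhabditis elegans: 362 peaks of the 18953 in the peak list made from both replicates together. A peak was taken when it lay on chromosome I, II, III or IV, when its signal (the value the authors' peak caller gave it) was at least 50, and when its summit was within 500 bp of the outermost annotated 5′ end of a protein-coding gene. Peaks were left out when the gene had a protein-coding gene of the opposite strand starting upstream within 1000 bp (a divergent promoter), or when a tRNA, snoRNA or snRNA gene started within 500 bp of the summit. The 362 peaks lay at 348 genes, of which 14 had 2 peaks each.

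The data come from ChIP-seq of whole hermaphrodites of strain YL563, young adults collected 48 hours after synchronization as starved L1 larvae, in 1 group of 2 biological replicates. The worms carried a stable insertion expressing REC-8 with GFP and FLAG at its C terminus, and the sheared chromatin was precipitated with an antibody to GFP, although another label names the antibody rec-8. The promoter of the transgene and the presence of untagged REC-8 are not stated in the labels. Each animal holds a germ line and all somatic tissues, so a peak gives no cell type. A control entered the authors' peak calls, yet none was analysed here, and the signal of an input or an untagged strain at these promoters is therefore not given. The files hold no read counts and the depth of each library is unknown.

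REC-8 is a meiosis-specific kleisin of cohesin, the ring that holds sister chromatids together. In worms it is expressed in the germ line, where it takes part in building the meiotic chromosome axis. Worm genes lie close together, and many share a direction with the gene just upstream and are transcribed with it as an operon. Their mRNAs often receive a spliced leader at the 5′ end, so an annotated start is often the site of trans-splicing, and transcription can start further upstream.

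The strongest of these peaks lay upstream of the annotated starts of genes with varied functions. The peak at rpl-3, which encodes a protein of the large ribosomal subunit, had a signal of 289 in the pooled list, with 142 in replicate 1 and 147 in replicate 2. Its summit was 271 bp upstream of the annotated start. The peak at rpl-35, another large-subunit protein gene, had a signal of 204, with 105 in replicate 1 and 100.1 in replicate 2, and lay 434 bp upstream. The peak at rpl-3 was 26th by signal in replicate 1 and 23rd in replicate 2, and that at rpl-35 54th and 68th. The peak at W04C9.4 stood between them, with a signal of 233 (95.3 in replicate 1 and 137 in replicate 2). The peak at mog-4, an RNA helicase gene needed for the switch from sperm to oocytes, had a signal of 180 (73.6 in replicate 1 and 110 in replicate 2). The peak at set-2, which encodes a histone H3 lysine methyltransferase, had a signal of 160 (61.0 and 92.1). Of the 25 members of highest signal, 5 fell in any of the gene lists described below, at rpl-3, rpl-35, set-2, rps-24 and swsn-3.

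The DNA under the 12 members of highest signal on chromosomes II, III and IV is given next, with and without matches, because the counts below rest on such matches. Each line is a stretch centred on the summit, read 5′ to 3′ on the strand of the gene, in WBcel235 (ce11). It was taken from RefSeq's copy of that assembly and cut short where annotated untranslated sequence began. Capitals mark matches, on either strand, to TGGCNNAG, GCGAGACC or one of the 11 motifs counted below except the run of T. The stretches are III:3867533-3867633 (rpl-3), III:7854650-7854750 (rpl-35), IV:6206530-6206630 (C49A9.10), IV:6321844-6321928 (Y73B6BL.29), II:14561768-14561868 (mog-4), II:4791448-4791548 (F26G1.1), III:4930442-4930542 (set-2), II:9940537-9940637 (ufd-3), III:8319270-8319370 (F10E9.11), III:1601592-1601692 (sms-3, upstream peak), III:1600839-1600939 (sms-3, intronic peak) and II:4299396-4299496 (sco-1).
rpl-3: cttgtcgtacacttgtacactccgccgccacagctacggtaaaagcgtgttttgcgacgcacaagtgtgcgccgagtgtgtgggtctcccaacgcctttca
rpl-35: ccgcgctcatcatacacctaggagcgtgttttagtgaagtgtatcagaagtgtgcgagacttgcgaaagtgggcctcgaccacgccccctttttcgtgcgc
C49A9.10: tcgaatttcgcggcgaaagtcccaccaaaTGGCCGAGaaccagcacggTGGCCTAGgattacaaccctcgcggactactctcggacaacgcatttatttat
Y73B6BL.29: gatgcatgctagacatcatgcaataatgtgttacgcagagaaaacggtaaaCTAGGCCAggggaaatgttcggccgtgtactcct
mog-4: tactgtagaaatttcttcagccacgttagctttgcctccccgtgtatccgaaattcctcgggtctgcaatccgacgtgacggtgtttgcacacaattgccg
F26G1.1: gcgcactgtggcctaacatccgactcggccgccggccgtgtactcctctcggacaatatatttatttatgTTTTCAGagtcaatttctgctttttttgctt
set-2: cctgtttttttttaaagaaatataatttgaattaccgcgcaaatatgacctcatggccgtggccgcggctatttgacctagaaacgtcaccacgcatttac
ufd-3: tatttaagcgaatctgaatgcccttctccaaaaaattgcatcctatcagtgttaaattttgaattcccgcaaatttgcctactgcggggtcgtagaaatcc
F10E9.11: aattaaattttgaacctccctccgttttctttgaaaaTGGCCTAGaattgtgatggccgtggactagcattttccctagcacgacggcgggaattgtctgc
sms-3, upstream peak: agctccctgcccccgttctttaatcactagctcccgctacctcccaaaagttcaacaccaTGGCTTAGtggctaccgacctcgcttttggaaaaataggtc
sms-3, intronic peak: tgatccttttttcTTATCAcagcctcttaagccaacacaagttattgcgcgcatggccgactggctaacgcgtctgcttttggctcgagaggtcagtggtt
sco-1: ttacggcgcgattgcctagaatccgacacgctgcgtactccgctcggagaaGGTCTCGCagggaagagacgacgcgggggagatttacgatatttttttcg

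The lines of C49A9.10, Y73B6BL.29, F10E9.11 and the upstream peak of sms-3 hold TGGCNNAG, which opens with the letters that begin the internal promoter (the A box) of many tRNA genes, although no tRNA, snoRNA or snRNA gene was annotated within 500 bp. The line of C49A9.10 holds it in 2 places. The line of sco-1, a gene for a copper chaperone of cytochrome c oxidase, holds GCGAGACC as its reverse complement. The line of F26G1.1 holds TTTTCAG, and that of the intronic peak of sms-3 holds TGATAA as its reverse complement. The lines of rpl-3, rpl-35, mog-4, set-2 and ufd-3 hold none of the patterns marked. The counts below use windows of 200 bp, which are longer than these lines. In those windows rpl-3 was counted for GAGAGA and set-2 for TTCGCGC and TGGCNNAG. Both peaks of sms-3 were counted for GGTTCGA and TGGCNNAG.

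In the list from both replicates the members had a median signal of 60.4 and reached 289, and most stood just above the threshold. There were 34 with a signal of 100 or more, 79 between 70 and 100, and 249 between 50 and 70. The members just above the threshold were at Y119D3B.21 (50.05), mdmh-35 (50.05) and byn-1 (50.1), and the single-promoter peaks just below it were at W01D2.3 (49.92), unc-54 (49.90) and Y71F9AL.8 (49.90). The threshold thus cut through a continuous range of signal. Most members, 352, had the fixed width of 430 bp that the authors' caller gave most peaks, and 10 had another width.

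The pooled signal was close to the sum of the signals in the 2 replicates. Over the 272 members with a summit within 100 bp in both replicate lists, the pooled signal divided by that sum had a median of 1.00 (quartiles 0.961 and 1.05). A member could therefore pass the threshold through either replicate. The peak at C53B4.3 had 25.9 in replicate 1 and 88.2 in replicate 2, and that at F10E9.11 had 30.6 in replicate 1 and 96.4 in replicate 2. At tpxl-1, the gene of an activator of Aurora A kinase, the values were 15.1 in replicate 1 and 55.1 in replicate 2. At repo-1, a splicing factor gene, they were 38.1 in replicate 1 and 12.04 in replicate 2, the reverse order. At spr-2, a gene of a nucleosome assembly protein family, they were 15.1 in replicate 1 and 45.6 in replicate 2. These 3 members (tpxl-1, repo-1 and spr-2) had the widest gaps in rank between the replicates.

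Of the 362 members, 316 (87.3%) were matched in replicate 1 and 316 (87.3%) in replicate 2, against 56.5% and 49.6% of all pooled peaks. A total of 44 were matched in replicate 1 alone, 44 in replicate 2 alone and 2, at lido-12 and fbxa-140, in neither, the first named after its value was seen. The signal in each replicate entered the pooled signal on which the members were chosen, so nothing is read from this margin. Summits matched in both replicates made up 75.1% of the members and 83.3% of the stronger divergent-promoter peaks. They made up 72.4% of equally strong peaks away from promoters and small RNA genes on the same chromosomes. Both replicates placed 82 members (22.7%) among their own 1981 strongest peaks, the number that the pooled list has at 50 or more. The share over all pooled peaks is not given here, so nothing is read from the 22.7%. The log2 ratio of replicate 1 to replicate 2 had a median of -0.02 and an SD of 0.79, and 134 of the 272 members were higher in replicate 1. Single members thus varied widely between the replicates, while their middle was nearly equal. Spearman's rho between the replicates was 0.065 across these peaks, given as a description, since the pooled minimum limits which pairs of values can enter.

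**Figure D1:**
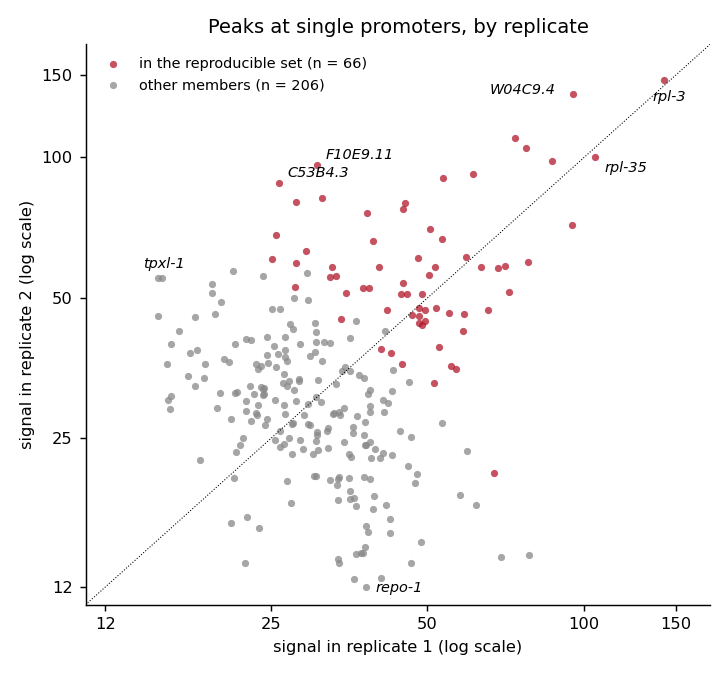
Signal of each member in replicate 1 (x axis, log scale) and replicate 2 (y axis, log scale), for the 272 members matched in both. Points in red are the 66 that belong to the authors' reproducible set, points in grey are the other 206, and the dotted line marks equal signal. rpl-3 and rpl-35 sit at the top near the line, and most grey points spread on both sides of it.

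The authors' reproducible set held 72 members (19.9%, exact 95% interval 15.9 to 24.4), against 3.2% of all pooled peaks. For these regions the set was a cut on signal: the lowest signal of a member inside it was 80.7 and the highest outside it was 79.9. The rule used that signal, so the margin over the pooled list is a description only. At divergent promoters, 62 of 144 peaks with a signal of 50 or more were in the set (43.1%, 34.8 to 51.6), and their median signal was 71.7. These and all other intervals are exact (Clopper-Pearson) and cover counting error only. No test was made between kinds of peak, since peaks are not replicates of a condition.

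Most summits lay upstream of the annotated start, and the stronger the peak, the more often. Of the members, 227 were upstream (62.7%, 57.5 to 67.7), with a median position 115 bp upstream of the start. The list of replicate 1 alone gave 56.1% upstream with a median of -55 bp, and that of replicate 2 alone 66.05% with -104 bp. By signal, 29 of 34 were upstream at 100 or more (85.3%), 56 of 79 between 70 and 100 (70.9%) and 142 of 249 between 50 and 70 (57.0%). Among the 25 members of highest signal, 24 were upstream, and the exception was the second peak of sms-3, a sphingomyelin synthase gene, in the gene's own intron. The weaker peaks at single promoters, with signals under 50, were near an even split, with 1281 of 2465 upstream (52.0%, 49.97 to 53.96) and a median 15 bp upstream. The stronger peaks at divergent promoters were upstream in 120 of 144 cases (83.3%, 76.2 to 89.0), with a median of 118 bp upstream.

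The positions were also spread more widely than at divergent promoters, a contrast partly set by how the classes were defined. Between 1 and 250 bp upstream lay 37.8% of the members and 72.9% of the divergent-promoter peaks. More than 250 bp upstream lay 24.9% of the members and 10.4% of the divergent-promoter peaks. Position was measured from the nearest start, and a divergent promoter has another start upstream within 1000 bp. Its share far upstream is therefore partly set by the class. Among the peaks with signals under 50, that share was 22.4% at single promoters and 7.41% at divergent promoters. Any difference beyond that limit was not tested. By annotation, 199 member summits (55.0%) lay between protein-coding genes, 66 (18.2%) in a coding exon of the gene itself, 45 (12.4%) in its introns and 23 (6.35%) in its 5′ UTR. The remaining 29 lay inside another gene, 13 in an intron, 11 in a UTR and 5 in a coding exon.

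**Figure D2:**
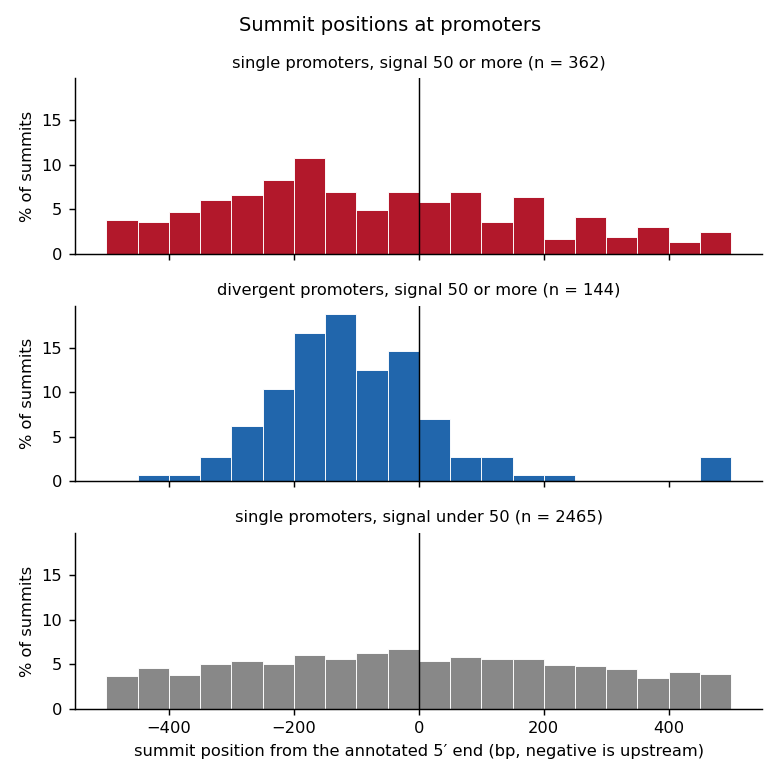
Position of the summit relative to the annotated 5′ end in bins of 50 bp (x axis, bp, negative is upstream), as the percent of summits (y axis). The top panel holds the 362 members, the middle panel the 144 stronger peaks at divergent promoters and the bottom panel the 2465 weaker peaks at single promoters; the members' highest bin starts 200 bp upstream, and the weaker peaks are nearly level.

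The genes with a member often stood directly behind another gene on the same strand. Of the 348 genes, 179 (51.4%, 46.0 to 56.8) had the 3′ end of a same-strand protein-coding gene within 500 bp upstream of their start, an arrangement called tandem here. Of all 9728 single promoters of the 4 chromosomes, 2369 were tandem (24.4%, 23.5 to 25.2). Members were found at 3.58% of all single promoters, at 7.56% of the tandem ones (6.52 to 8.69) and at 2.30% of the others (1.97 to 2.67). On each chromosome the share was above that of its single promoters: 60% against 26.9% on I, 46.7% against 23.2% on II, 46.1% against 27.8% on III and 53.7% against 20.7% on IV. The arrangement was noticed in these data, and operon annotation was not used.

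The peaks under 50 shared the pattern in part, with 891 of 2227 of their genes in tandem (40.0%, 38.0 to 42.1). The share did not climb with signal among the members, at 54.5% of genes between 50 and 70 (48.0 to 60.8), 43.6% between 70 and 100 (32.4 to 55.3) and 48.5% at 100 or more (30.8 to 66.5). It was 48.7% at the 302 genes chosen from replicate 1 alone and 50.6% at the 360 chosen from replicate 2 alone. Of these genes, 183 of the 302 and 229 of the 360 also had a member, so they are only in part the same genes. The 2 replicates thus gave like shares. By side of the start, the tandem share was 63.6% of 132 genes with a downstream summit (54.8 to 71.8). Among the 221 genes with an upstream summit it was 43.9% (37.2 to 50.7).

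Of the 184 members at tandem genes, 85 (46.2%) had the summit in the space between the 2 genes, 86 had it within the downstream gene and 13 had it at or before the end of the upstream gene. The space between the 2 genes had a median of 199 bp at the 179 genes and 163 bp at all tandem single promoters. Spaces of at most 150 bp made up 44.1% of the members' tandem genes and 48.0% of all tandem single promoters, so the members' pairs were not closer together than tandem pairs at large. Within 250 bp of a protein-coding 3′ end lay 157 of 362 member summits (43.4%, 38.2 to 48.7), against 716 of 2465 weaker single-promoter peaks (29.0%, 27.3 to 30.9). For all single promoters, the position 115 bp upstream of the start lay that near in 2215 of 9728 (22.8%, 21.9 to 23.6). That position is upstream, whereas 135 member summits lay downstream. At divergent promoters it was 6 of 144 (4.17%). The gene upstream points away there by definition, so that share is partly set by the class.

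Of the 25 strongest members, 10 were at tandem genes. C49A9.10, with a signal of 187 (77.5 in replicate 1 and 105 in replicate 2), starts 477 bp after the end of ugt-24, a gene of the UDP-glucuronosyltransferase family, and its summit was 236 bp upstream. F26G1.1, with 164 (94.996 and 71.8), starts 278 bp after F26G1.15, and its summit was 120 bp upstream. ufd-3, of the ubiquitin fusion degradation pathway, had 145 (53.5 and 90.2) and starts 321 bp after C05C10.5. rpac-19, a subunit gene of RNA polymerases I and III, had 118.8 (53.3 and 66.8) and starts 212 bp after ubc-7, a ubiquitin-conjugating enzyme gene. The rest of these peaks included 4 at genes whose same-strand neighbour ended further away, among them rpl-3, which starts 756 bp after acs-19, and 10 with an opposite-strand neighbour.

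**Figure D3:**
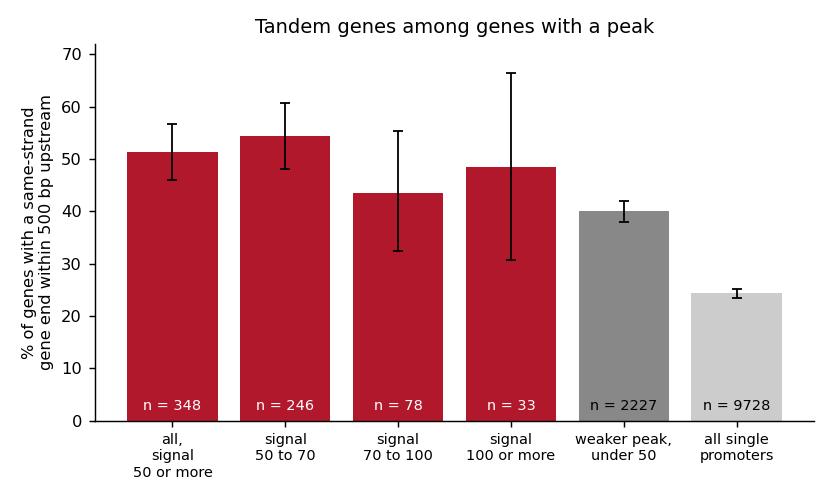
Share of genes (y axis, percent) whose start has the end of a same-strand protein-coding gene within 500 bp upstream, with exact 95% intervals as error bars. Red bars are the 348 genes with a member, together and by signal; the dark grey bar is the 2227 genes with a weaker peak (40.0%) and the light grey bar all 9728 single promoters (24.4%).

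GC content was raised in a narrow band at the summit. In bins of 50 bp oriented by the gene, the mean GC of the members was 43.0% ± 0.690 (SE over 362 peaks) at the summit, 35.2% 100 bp upstream of it and 36.7% 100 bp downstream. At divergent promoters the bin at the summit reached 47.7% ± 1.05, with 31.9% at the same distance upstream and 34.2% downstream. The weaker single-promoter peaks were nearly flat, at 37.2% ± 0.258, 36.2% and 37.2%. Over 200 bp at the summit the members averaged 39.4% GC, against 38.1% in flanks 1000 bp to each side, a difference of 1.32 percentage points (SE 0.490). That difference depended on the window: it was 3.18 points in 100 bp and -0.78 in 400 bp, which takes in the dips beside the summit. GC was higher at the summit than in the flanks at 185 of 362 members (51.1%), so the mean rests on a part of them. At equally strong peaks away from promoters and small RNA genes the difference over 200 bp was larger, at 4.47 points (SE 0.443).

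**Figure D4:**
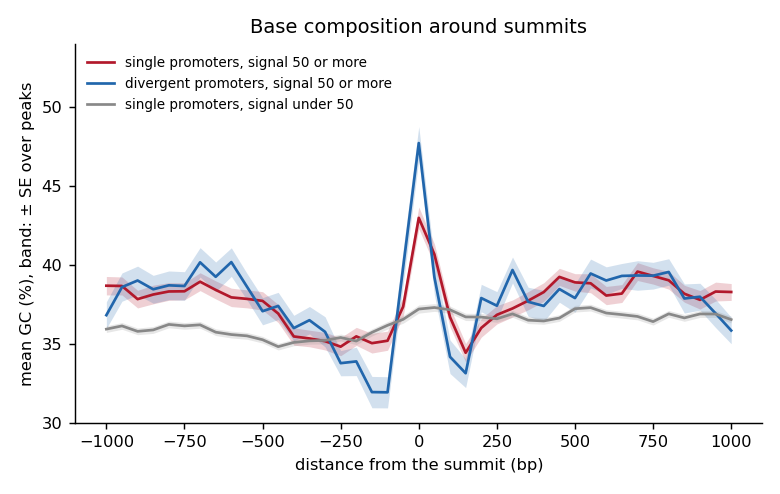
Mean GC content (y axis, percent) in bins of 50 bp from 1000 bp upstream to 1000 bp downstream of the summit (x axis, bp, in the direction of the gene), with a band of ± SE over peaks. The members peak at 43.0% and the divergent-promoter peaks at 47.7%, each between dips, and the weaker single-promoter peaks change little.

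Some short motifs were more frequent at the summit than beside it. Windows of 200 bp at the summit were compared with windows 1000 bp to each side and with windows at the members' median position, 115 bp upstream, at all 9728 single promoters. The windows at all single promoters averaged 33.5% GC, against 39.4% at the members, and lie upstream of the start, while 135 member summits lie downstream. The part of base composition and position in the differences from all single promoters was not tested. CTGCGTC was in 25 members (6.91%, 4.52 to 10.03), in 2.49% of each flank and in 3.52% of all single promoters. It was in 12 of the 144 stronger divergent-promoter peaks (8.33%). It was in 10.1% of the members with an upstream summit and 1.48% of those with a downstream summit. TTCGCGC was in 13 members (3.59%, 1.93 to 6.06), against 0.829% and 1.38% of the flanks and 1.30% of all single promoters. Its share of the stronger divergent-promoter peaks was 3.47%. GGTTCGA, the start of the B box of tRNA genes, was in 11 members (3.04%, 1.53 to 5.37), against 1.38% and 1.93% of the flanks and 0.822% of all single promoters. Its share of the stronger divergent-promoter peaks was 0.694%. Among equally strong peaks away from promoters and small RNA genes it was in 19 of 562 (3.38%), so it was not particular to the members.

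The motif CCGCCC was in 26 members (7.18%, 4.75 to 10.3), against 2.76% and 3.04% of the flanks, but it was in 6.23% of all single promoters. It was in 26 of the 144 stronger divergent-promoter peaks (18.1%). GAGAGA was in 55 members (15.2%), against 11.3% and 8.84% of the flanks, and again near its share over all single promoters, 17.2%. The GATA-type motif TGATAA, bound by factors of the intestine among others, was in 48 members (13.3%, 9.94 to 17.2), below the flanks (18.2% and 20.4%) and below all single promoters (22.9%). TATAAA was in 21.8% of the members, above the flanks (16.02% and 13.5%) but below all single promoters (29.5%). TTTTTT was in 57.2%, against 51.4% and 53.3% of the flanks and 71.8% of all single promoters. CATATG was in 1.38%, against 3.31% and 5.25% of the flanks and 3.19% of all single promoters. CACGTG was in 5.52%, against 1.66% and 4.42% of the flanks and 4.65% of all single promoters. TTTTCAG was in 21.0%, against 25.4% and 21.8% of the flanks and 16.5% of all single promoters. Every motif was searched on both strands, and a match is a string of letters, not a site.

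A further 3 patterns were noticed at the summits themselves and are given as descriptions. TGGCCTAG was in 21 members (5.80%, 3.63 to 8.73), in 3 left and 4 right flanks and in 0.833% of all single promoters. It was in 20 of the 144 stronger divergent-promoter peaks (13.9%), a higher share than in the members. It was most frequent in the strongest members, with 9 of 34 at a signal of 100 or more. It was in 5 of 79 between 70 and 100 and in 7 of 249 below 70. The members of chromosomes I and III, on which it was found, are among these, so this order describes peaks it was partly chosen on. The looser TGGCNNAG, which includes it, was in 52 members (14.4%, 10.9 to 18.4), in 23 left and 31 right flanks and in 4.38% of all single promoters. It was in 12 of the 34 strongest members (35.3%), among them rps-24, a small-subunit ribosomal protein gene, ekl-6 and thoc-5, a gene of the THO mRNA export complex. In the divergent-promoter peaks it was in 33 of 144 (22.9%), and in the weaker single-promoter peaks in 164 of 2465 (6.65%), close to their flanks (6.25% and 5.96%). A tRNA pseudogene of the RefSeq annotation lay within 500 bp of 1 member summit, at Y69A2AR.31, named after its value was seen.

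The third pattern, GCGAGACC, was in 20 members (5.52%, 3.41 to 8.40), in 2 left and 1 right flanks and in 0.946% of all single promoters. It did not follow the signal as TGGCCTAG did: it was in 1 of the 34 strongest members, 5 of 79 and 14 of 249. The words of 8 letters were taken from the 181 members of chromosomes I and III and then counted in the 181 of II and IV. GCGAGACC was in 10 members of the first and 10 of the second, while TGGCCTAG was in 16 and 5. In the second, TGGCCTAG was in 2.76% of the members, against 0.552% of each flank. GCCACGGC was in 11 and 1. Most of the count of TGGCCTAG and of GCCACGGC thus came from the chromosomes on which they were found.

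The share of genes with a member differed between gene lists. Gene lists were made from symbol patterns, and each is given as genes with a member of genes with a single promoter on the 4 chromosomes, beside the 3.58% over all single promoters. Genes are not replicates, and no allowance was made for the number of lists. Where an interval is set against 3.58%, this is a description and not a test. Of the 28 lists, cytosolic ribosomal proteins had the highest share, 8 of 29 (27.6%, 12.7 to 47.2). They included rpl-3, rpl-35 and rps-24, whose peak had a signal of 123 (45.3 in replicate 1 and 79.7 in replicate 2) 342 bp upstream. With a distance limit of 250 bp the list fell to 1 gene, since most of these summits lay further upstream. Respiratory chain and ATP synthase genes followed with 5 of 22 (22.7%, 7.82 to 45.4). With replicate 2 alone or replicate 1 alone these lists had 8 and 7 ribosomal genes and 6 and 4 respiratory genes. Here and below, counts from 1 replicate alone can include genes without a member. With the limit of 250 bp the respiratory list fell to 2 genes, while 225 of the 362 members remained. The cytochrome c oxidase subunit gene cox-5A had 99.4 (45.6 and 51.1) and cox-5B had 85.7 (34.9 and 51.3).

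Splicing and RNA processing had 6 of 31 (19.4%, 7.45 to 37.5), including cpf-2, a cleavage stimulation factor gene, with 71.99 (26.6 and 38.7). In replicate 1 alone that list had 2 genes, against 6 in replicate 2 alone. Translation factors had 3 of 16 (18.8%, 4.05 to 45.6), namely eif-3.B with 72.2 (19.5 and 46.2), eif-3.C with 70.8 (26.6 and 41.3) and eif-2alpha with 61.5 (27.5 and 23.2), but 1 in replicate 1 alone. Chaperones had 5 of 36 (13.9%, 4.67 to 29.5), including the prefoldin subunit gene pfd-5 with 75.02 (42.6 and 31.5). With the limit of 250 bp splicing fell to 3 genes and chaperones to 2, while translation factors kept 3. Aminoacyl-tRNA synthetases had 2 of 17, yars-2 with 97.8 (44.9 and 53.7) and fars-3 with 61.8 (37.7 and 33.6). Mitochondrial ribosomal proteins had 2 of 37 (5.41%, 0.661 to 18.2), a share near that of all single promoters.

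Chromatin regulators had 6 of 51 (11.8%, 4.44 to 23.9). Beside set-2 they included swsn-3, a SWI/SNF remodeller gene, with 118 (51.7 and 58.2) 154 bp upstream and inside an intron of another gene. Germline RNA regulators had 5 of 55 (9.09%, 3.02 to 20.0). These included puf-11, of the Pumilio family of RNA-binding proteins, with 103.1 (58.8 and 46.3), ntl-11, of the CCR4-NOT deadenylase, with 74.5 (38.7 and 28.5), and ego-1, an RNA-directed RNA polymerase, with 71.0 (42.8 and 23.0). Meiotic chromosome and cohesin genes had 3 of 35 (8.57%, 1.80 to 23.1). They were cosa-1, which marks crossover sites, with 63.5 (38.1 and 24.2), rad-54.B, of recombination repair, with 58.3 (33.9 and 28.1) at the higher of its 2 peaks, and rad-54.L2 with 54.8 (29.0 and 28.1). The intervals of both germline lists took in 3.58%, and that of the chromatin regulators lay above it, with no allowance for the number of lists. Chromatin regulators had 7 genes in replicate 1 alone but 4 in replicate 2 alone. Germline RNA regulators had 4 in either replicate alone, and meiotic chromosome and cohesin genes 2 and 4. With a distance limit of 250 bp each of these 3 lists had 2 genes.

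Of the other lists for genes used in many cells, vesicle traffic had 6 of 72 (8.33%, 3.12 to 17.3) and cell cycle and spindle 6 of 86 (6.98%, 2.60 to 14.6). Metabolic enzymes had 13 of 195 (6.67%, 3.60 to 11.1). The ubiquitin pathway had 2 of 33, RNA polymerase II and Mediator 2 of 39 and the vacuolar ATPase 1 of 10. The interval of metabolic enzymes lay just above 3.58%, and those of the other lists named here took it in. The alpha-tubulin gene tba-2 had 88.3 (33.4 and 55.6), and the methionine synthase gene metr-1 had 89.3 (55.5 and 35.8). Several of these counts changed when 1 replicate was used alone. Vesicle traffic had 3 in either replicate alone, and metabolic enzymes had 12 in replicate 1 alone and 9 in replicate 2 alone. The ubiquitin pathway had 4 in replicate 1 alone and 2 in replicate 2 alone. RNA polymerase II and Mediator had 1 and 3, and the vacuolar ATPase 0 and 1, in the same order. The proteasome had 0 of 10 (interval up to 30.8%), with 1 in either replicate alone, and core histones 0 of 9 (up to 33.6%).

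There were members at 0 of 385 chemoreceptor genes (exact upper limit 0.954%), 0 of 166 membrane channels and transporters (upper limit 2.20%) and 1 of 266 F-box and MATH genes (0.376%, 0.00952 to 2.08), and these limits lay below 3.58%. The chemoreceptor count was 0 in either replicate alone. Channels and transporters had 2 in replicate 1 alone and 3 in replicate 2 alone, and F-box and MATH genes had 1 and 2. Sperm genes had 0 of 80 (upper limit 4.51%) and 1 in replicate 2 alone. Cuticle and collagen genes had 2 of 159 (1.26%, 0.153 to 4.47), col-39 with 58.0 and col-106 with 55.8, and neuropeptide genes 1 of 77 (1.30%, 0.0329 to 7.02), nlp-36 with 52.8. The intervals of the last 3 lists took in 3.58%. Weaker peaks occurred at 38 chemoreceptor, 37 channel and transporter and 12 sperm genes. Transcription factors had 6 of 191 (3.14%, 1.16 to 6.71), and 3 in replicate 1 alone. Also near the share over all single promoters, or with intervals that took it in, were yolk and eggshell genes with 2 of 31, actin and muscle genes 1 of 29 (0 in replicate 1 alone and 4 in replicate 2 alone) and signalling kinases and phosphatases 3 of 82. The 2 yolk and eggshell genes were puf-11 and cpg-1, and puf-11 was also counted among the germline RNA regulators. The gene rnp-8 was counted there and in splicing and RNA processing. Lists follow symbols alone, so a gene can stand in a list that its function does not match. In all, 93 members fell in a list and 269 in none.

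**Figure D5:**
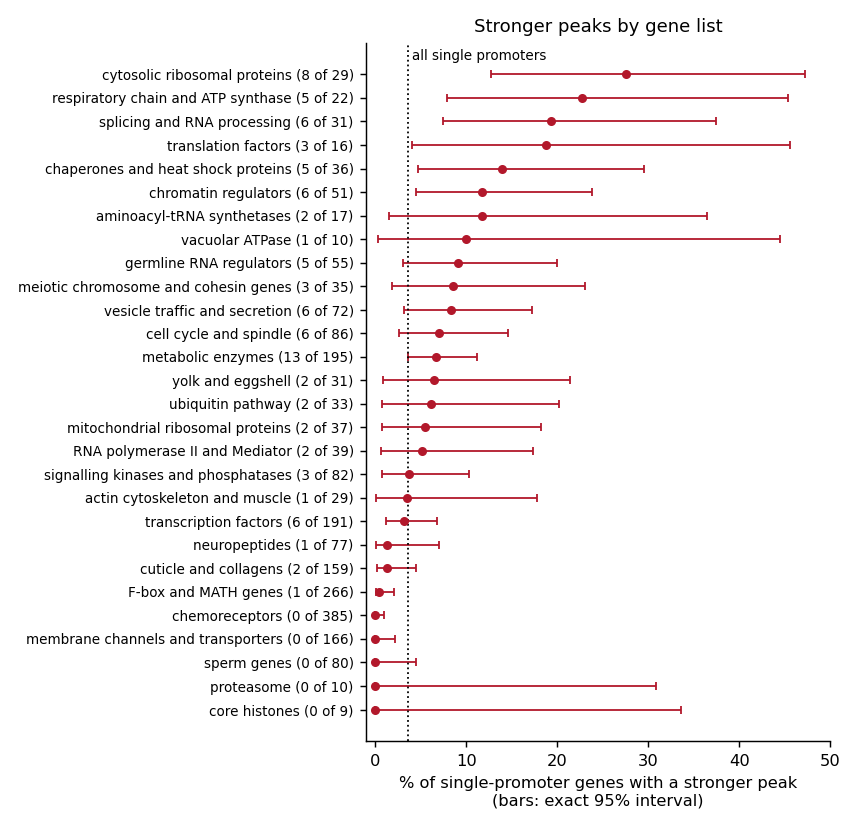
Share of each list's single-promoter genes that had a member (x axis, percent, with exact 95% intervals), by list (rows, with the counts in brackets). The dotted line is the share over all single promoters, 3.58%; cytosolic ribosomal proteins stand highest at 27.6%, and chemoreceptors, channels, sperm genes, proteasome and histones are at 0.

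The members were spread over the 4 chromosomes in near proportion to their single promoters, at 3.803% of them on I, 3.29% on II, 4.35% on III and 3.09% on IV. In the central part of the chromosomes, 1 of 3 equal lengths, lay 41.95% of the genes with a member (36.7 to 47.3) and 38.2% of all single promoters. The genes had a median length of 2494 bp, against 2173.5 bp for all single promoters. The 14 genes with 2 members had both summits within the same start region, as at wwp-1, a ubiquitin ligase gene, with 120 at 256 bp upstream and 52.9 at 38 bp upstream. In replicate 1 the first of these had no match and the second had 78.2, while in replicate 2 they had 66.1 and 14.1, so the replicates placed the stronger summit differently. Near the rec-8 gene, which encodes the tagged protein, 1 member lay within 50000 bp, at W02A2.12, a gene named after its value was seen. The highest pooled signal of any peak in that range was 66.5.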

How the data were processed

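Per the notes deposited with the files, the authors made relaxed peak lists for each replicate and for both together, and a reproducible set, on ce11 and ce10; the ce11 lists were used. The deposited signal is the authors' value for each peak, and the deposited q-value is on a −log10 scale, at most 2.37 here. For the aligner, peak caller and thresholds: not given in the sources used here. Depth is unknown.

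Summits were placed on the Ensembl release 115 annotation of WBcel235, which is the ce11 assembly, with Python 3.11.15, pandas 2.3.3, numpy 2.4.6, scipy 1.17.1 and matplotlib 3.10.9. A replicate peak matched within 100 bp of a summit. Signals of the 2 replicates are set side by side as deposited, with no correction for depth. The rule was checked on planted peaks. The members, motifs and gene lists were chosen with earlier results of these data known, and symbol patterns of 4 lists were tightened after wrong matches were seen. Tandem genes, TGGCCTAG, TGGCNNAG and GCGAGACC were added after the values were seen. Named genes were the 25 strongest members, up to 3 per list, 3 to each side of the threshold and the 3 widest rank gaps; others are marked. The ce10 lists were not used. With 2 replicates of 1 group, no test was made.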

Additional observations from a re-analysis of the deposited data

How the results depend on the processing

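The number of members was 362, and 34 at a minimum signal of 100, 2553 at 25, 225 within 250 bp and 72 in the reproducible set. Upstream summits made up 62.7%, and 85.3% at 100, 53.5% at 25 and 81.9% in the reproducible set. The median position was -115 bp, and -158, -27 and -181.5 at those settings and -49 within 250 bp. The share in the reproducible set was 19.9%, and 100% at 100, 2.82% at 25 and 24.6% with small RNA genes allowed. The GC difference was 1.32 points, and 2.80 at 100, 0.692 at 25, 0.949 within 250 bp, 2.50 within 1000 bp, 1.65 and 0.983 with divergent pairs within 500 and 2000 bp, 2.20 with small RNA genes allowed, 1.75 from any transcript start, 2.38 in the reproducible set and 3.18 in a window of 100 bp. It was reversed, at -0.78, in a window of 400 bp. Matches in replicate 1 were 71.8%, 95.6% and 96.7% within 50 bp, within 250 bp and by any overlap, and in replicate 2 they were 72.1%, 96.7% and 97.5%. Leaving out 1 replicate gave 56.1% to 66.05% upstream, medians of -104 to -55 bp, 310 to 377 members and GC differences of 1.277 to 1.595. Of the motif shares, 168 under the alternatives stayed within their error and 30 did not, and of the list counts 300 stayed within 1.5 times and 120 did not. No paired analysis was possible because there is 1 group. The cause of each shift was not tested. With 1 group of 2 replicates and no read depth, a difference between kinds of peak has no error from replicates.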
